A study of Mus musculus with 10 samples.

Results

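Sites of open chromatin that carried a lone but strong footprint were rare in 3T3-L1 cells at 4 h of adipogenic induction. They numbered 950 of 129028 DNase I hypersensitive (DHS) sites, or 0.736%. They were chosen by 2 measured values, the number of footprints in the site, which had to be exactly 1, and the deposited score of that footprint, which had to be finite and -5 or lower. They are called strong lone sites here, and the 12720 sites whose lone footprint had a finite score above -5 are called weak lone sites. A further 171 lone footprints had a score of -Inf and entered neither group. The score is the authors' value per footprint, headed as a p-value in their list although it is always negative. The sources used here give neither its scale nor its log base, and a lower score was read as a stronger footprint.

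The study mapped accessible chromatin by DNase I digestion and sequencing in 3T3-L1, a mouse fibroblast line committed to the fat cell lineage. The cells carried no knockdown and were harvested 4 h after they received 1 µM dexamethasone (a glucocorticoid), 0.5 mM 3-isobutyl-1-methylxanthine (an inhibitor of cyclic nucleotide breakdown), 1 µg/mL insulin and 10% fetal calf serum. Both DNase samples, of which 1 was sequenced from both ends of the fragments, are deeper sequencing of 1 earlier library, and the authors pooled all of its reads before calling sites and footprints. The lists therefore have no replicates and no untreated counterpart, the number of reads behind each site is unknown, and the 8 RNA samples with a scrambled or a C/EBPβ shRNA were not analysed here. The lists hold no expression values, so the cell type could not be checked against its markers.

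DNase I cuts DNA that is free of nucleosomes, and a bound protein shields its contact bases from the enzyme, which leaves a short dip in the cuts inside an open site. Enhancers of differentiating preadipocytes bind many factors side by side, among them C/EBPβ, the glucocorticoid receptor and AP-1, and such crowded sites can show several dips. The depth of a dip depends on how long a factor stays on DNA, on how many cuts were sequenced and on the sequence preference of DNase I. A footprint by itself does not name the protein. A sequence of the mm9 genome and a gene annotation on it were not used here, so no base sequence, motif or gene is attached to the sites below. All positions are mm9 and are given as 1-based, on the assumption that both lists follow the BED convention for starts.

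A score of -5 or lower was less frequent among lone footprints than among footprints at large. Of all 328580 footprints with a finite score, 107061 (32.6%) reached it, against 950 of 13670 lone footprints (6.95%, 95% Wilson interval 6.54 to 7.39%). Such intervals hold counting error alone and take sites as independent. Among footprints in sites with 2 footprints the share was 7.28%, and in sites with 3 to 4 it was 12.7%. It reached 28.7% in sites with 5 to 9 footprints and 44.5% in sites with 10 or more. The median score was -3.83 for lone footprints, -3.90 with 2 footprints in the site, -4.05 with 3 to 4, -4.35 with 5 to 9 and -4.77 with 10 or more. Lone footprints and those in pairs thus had similar shares, and the shares were higher in sites with more footprints. The number of footprints and the score both chose the members, so these shares describe the choice and test nothing.

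**Figure D1:**
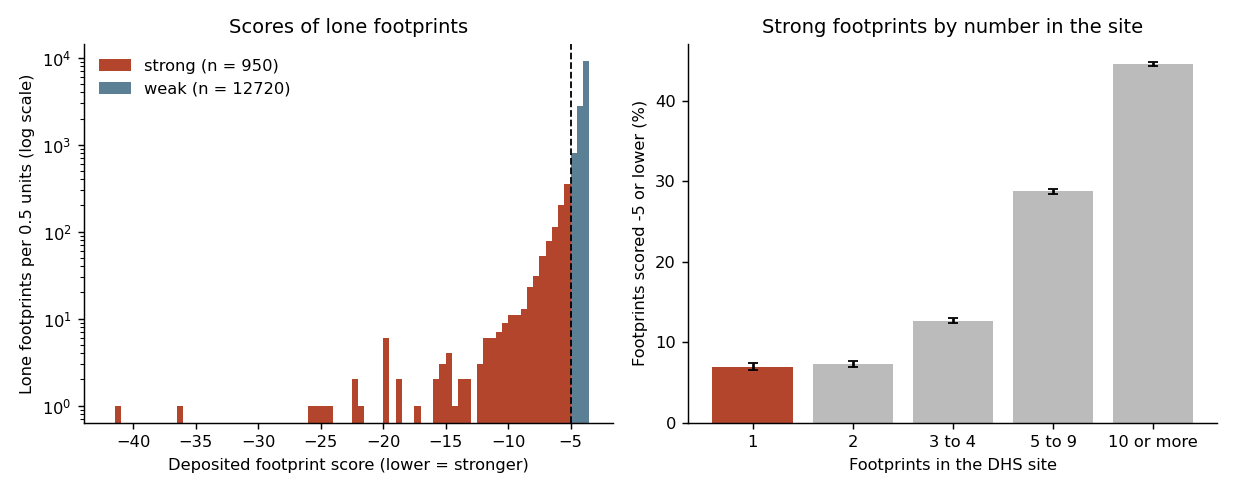
Left, scores of the 13670 lone footprints with a finite score (x axis, deposited score; y axis, number of lone footprints per 0.5 score units on a log scale), with the limit of -5 as a dashed line, strong in red and weak in blue. Right, percentage of footprints scored -5 or lower by the number of footprints in the site, with 95% Wilson intervals. The share is 6.95% for lone footprints and 44.5% in sites with 10 or more.

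The strong lone footprints had a median score of -5.74 (interquartile range -6.77 to -5.29), against -3.80 (-4.04 to -3.65) for the weak ones. Most lay close to the limit. There were 555 between -6 and -5, 274 between -8 and -6, 86 between -12 and -8, and 35 at -12 or lower. The 5 members nearest to the limit ranged from -5.00408 to -5.00233, and the 5 lone footprints just outside it from -4.99999 to -4.99652. There was no gap in scores at the limit, which is a line through a continuous tail.

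The 10 lowest scores came from 6 autosomes and chromosome X. Of their sites, 3 were 370 to 390 bp wide and 7 were 510 to 744 bp wide, and their footprints were 25 to 30 bp wide, 6 of them at the largest width of 30 bp. The lowest score, -41.0, was that of a footprint at 17826223 to 17826252 of chromosome 11, exactly in the middle of a site of 370 bp (17826053 to 17826422). Its nearest neighbouring site was 24846 bp away. The second, -36.4, lay on chromosome 5 from 85048070 to 85048097, also exactly in the middle of its site of 372 bp, and its nearest neighbour was 29038 bp away. Both sites were small, centred on their footprint and far from other open chromatin.

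The next scores were closer to each other. They were -25.7 on chromosome 11 (22609224 to 22609253), -25.2 on chromosome 18 (22531720 to 22531744) and -24.9 on chromosome 8 (104548566 to 104548595). A footprint on chromosome 1 from 190802221 to 190802250 scored -24.2, and one on chromosome X from 13246216 to 13246243 scored -22.5 and was again exactly central. The remaining 3 scored -22.3 on chromosome 2 (98507501 to 98507530), -21.8 on chromosome 1 (65468360 to 65468387) and -19.8 on chromosome 5 (30024724 to 30024753). In 2 of the 10, those at -22.3 and -19.8, the footprint lay nearer to the edge of the site than to its centre. The nearest neighbouring site held no footprint at all in 7 of the 10. That was so for 49.6% of all strong and 41.1% of weak lone sites, and 10 sites are too few to tell these apart.

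The weak lone sites were the comparison for every further feature. All values come from 1 library, so no test between conditions was possible and no p-value is given. The spread is shown over the 20 chromosomes that had at least 5 sites in both groups. Chromosomes are not replicates, since they were read from the same library.

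Strong lone footprints were wide. Their median width was 29 bp (interquartile range 27 to 30 bp), against 27 bp (22 to 30 bp) for weak ones, and the median was higher on 20 of 20 chromosomes (mean difference 2.25 ± 0.716 bp, SD, n = 20 chromosomes). The list stops at 30 bp, and 467 strong footprints (49.2%, Wilson interval 46.0 to 52.3%) were at that limit, against 4085 weak ones (32.1%, 31.3 to 32.9%). Only 64 strong footprints (6.74%) were under 20 bp, against 2316 weak ones (18.2%). Seen from the width, 9 of 561 lone footprints of 8 to 12 bp were strong (1.60%), 140 of 2323 at 25 to 27 bp (6.03%), and 467 of 4552 at 30 bp (10.3%). Width belongs to the same call as the score that chose the members, so this is a description.

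Position within the site differed by less than the spread between chromosomes. The distance from footprint centre to site centre, as a share of the distance from site centre to edge, averaged 0.293 ± 0.218 in strong lone sites and 0.278 ± 0.212 in weak ones (SD over 950 and 12720 sites). The difference of 0.0153 was smaller than its spread over chromosomes (mean 0.0139 ± 0.0377, SD, n = 20), and it was positive on 12 of them and negative on 8. Within 0.1 of the centre lay 23.2% of strong and 23.4% of weak footprints. A centre nearer to the edge than to the middle was seen in 18.5% of strong footprints (Wilson interval 16.2 to 21.1%) and in 16.4% of weak ones (15.8 to 17.1%). Strong footprints ended a median of 176 bp from the nearer edge of the site, and weak ones 201 bp. Among sites of like width the difference in relative position was -0.00295. A lone footprint was thus found toward the middle of its site in both groups.

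**Figure D2:**
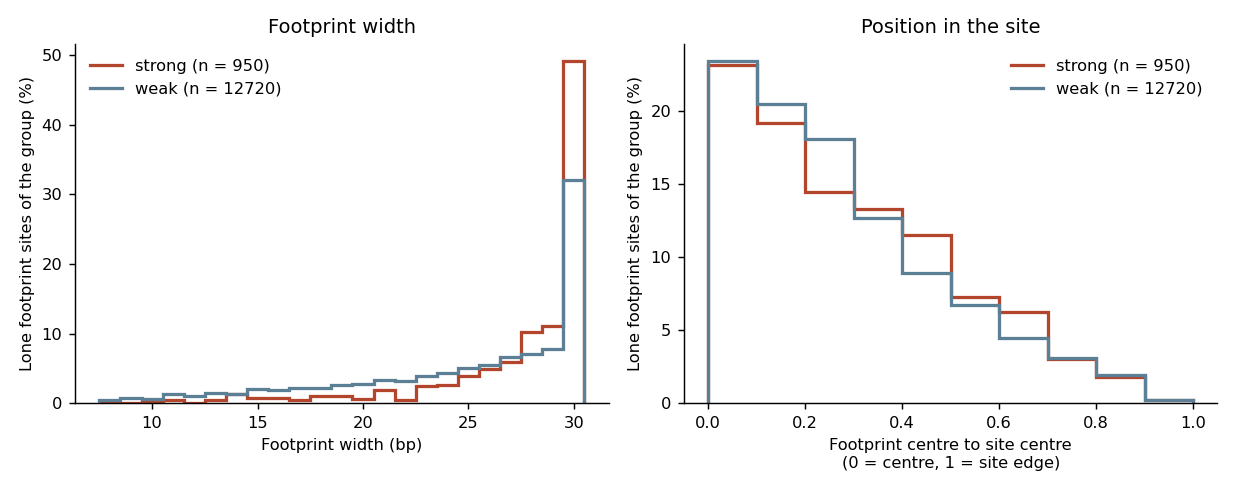
Left, width of lone footprints in bp; right, distance of the footprint centre from the site centre (0 at the centre, 1 at the edge). Both y axes give the percentage of lone sites in the group, strong in red and weak in blue. The left outlines reach 49.2% of strong and 32.1% of weak footprints at 30 bp, while the curves of position nearly coincide.

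Strong lone sites were less uniform in width than weak ones. Their median width was 537 bp (interquartile range 413 to 669 bp), against 558 bp (454 to 648 bp) for weak lone sites. That difference of -21 bp was smaller than its spread over chromosomes (mean -21.9 ± 42.6 bp, SD, n = 20), with lower medians in strong sites on 15 of 20. Both ends of the range were fuller in the strong group. Sites under 350 bp made up 15.7% of strong lone sites (Wilson interval 13.5 to 18.1%) and 10.7% of weak ones (10.2 to 11.2%), and sites over 800 bp 14.2% (12.1 to 16.6%) of strong and 9.73% (9.23 to 10.3%) of weak ones. The sites without any footprint had a median width of 419 bp and those with 2 to 4 footprints 647 bp, so both lone groups lay between them.

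Read by width, the share of lone footprints that were strong was lowest in the middle of the range. It was 10.9% at 251 to 300 bp (95 of 873 lone sites), 9.08% at 301 to 400 bp and 6.85% at 401 to 500 bp. It was 5.40% at 501 to 600 bp and 5.17% at 601 to 700 bp. Above that it was 7.26% at 701 to 800 bp, 8.87% at 801 to 1000 bp, 9.98% at 1001 to 1500 bp and 18.0% above 1500 bp (16 of 89). The Wilson intervals of the narrowest class (8.99 to 13.1%) and of the widest (11.4 to 27.2%) lay above that of the 601 to 700 bp class (4.41 to 6.04%).

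**Figure D3:**
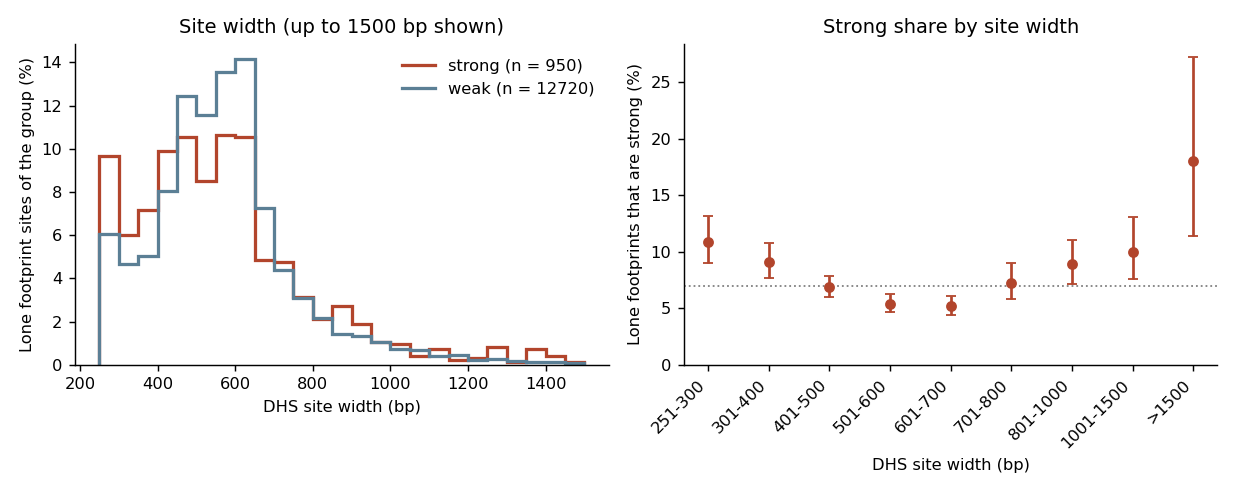
Left, width of the DHS site in 50 bp steps up to 1500 bp, as a percentage of the group, strong in red and weak in blue. Right, percentage of lone footprints that were strong in classes of site width, with 95% Wilson intervals and the overall 6.95% as a dotted line. The share is lowest at 601 to 700 bp, 5.17%, and higher at both ends.

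The members at both ends of the width range show how different these sites can be. The widest spanned 2754 bp on chromosome 5 from 95175035 to 95177788, with its only footprint at 95176825 to 95176852 and a score of -5.12. Another of 2512 bp on chromosome 1 from 95807457 to 95809968 had a lone footprint at -6.03 and 38 other sites within 50 kb. The next 3 were 1915 bp on chromosome 12 from 20111285 to 20113199 (-5.003), 1879 bp on chromosome 17 from 13289361 to 13291239 (-5.48) and 1879 bp on chromosome X from 4242145 to 4244023 (-5.34). All 5 had another site within 508 bp. At the lower end, 30 of 950 strong lone sites had the smallest width in the list, 251 bp. So did 160 of 12720 weak lone sites and 5088 of all 129028 sites, so this width was not particular to the members. Of the 30 strong ones, 5 taken in the text order of chromosome names scored from -9.41 to -5.85 and lay on chromosomes 1, 10, 12 and 13. The strongest of those 5, on chromosome 1 from 88046978 to 88047228, had its footprint at 88047088 to 88047116, almost in the middle.

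Strong lone sites had more open chromatin around them. The nearest other site was a median of 2048 bp away (interquartile range 494 to 6754 bp), against 3639 bp (940 to 9670 bp) for weak lone sites and 4368 bp for all sites. The median was shorter in strong sites on 17 of 20 chromosomes (mean difference -1314 ± 902 bp, SD, n = 20). A neighbour within 250 bp was present for 16.7% of strong lone sites (Wilson interval 14.5 to 19.2%) and 10.6% of weak ones (10.1 to 11.2%). Within 50 kb on either side there were a median of 8 other sites (interquartile range 5 to 14) around strong lone sites, against 6 (4 to 9) around weak ones and 6 over all sites. The number was higher for strong sites on 15 of 20 chromosomes and equal on the other 5 (mean difference 1.90 ± 1.61 sites, SD, n = 20). At least 10 others were found around 40.7% of strong lone sites (387, Wilson interval 37.7 to 43.9%) and around 19.3% of weak ones (2449, 18.6 to 19.9%). At least 20 were found around 12.8% of strong and 2.79% of weak lone sites.

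The share of strong footprints went up with the local number of sites. It was 4.33% with 3 to 4 other sites within 50 kb (120 of 2770 lone sites), 4.65% with 5 to 6, 5.25% with 7 to 8 and 7.28% with 9 to 10. It was 11.99% with 11 to 15, 14.7% with 16 to 20, 23.1% with 21 to 30 and 32.7% with more than 30 (48 of 147, Wilson interval 25.6 to 40.6%). At the sparse end it was again higher, 9.29% with 1 other site (42 of 452, 6.95 to 12.3%) and 8.59% with none (14 of 163, 5.19 to 13.9%), against 5.28% with 2. By distance to the nearest site the same form was seen. The share was 10.5% at 250 bp or less, 4.10% at 10 to 20 kb and 9.03% beyond 50 kb (14 of 155, 5.46 to 14.6%). Depth over these stretches is unknown, and whether the number of cuts moves with the local number of sites was not tested.

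**Figure D4:**
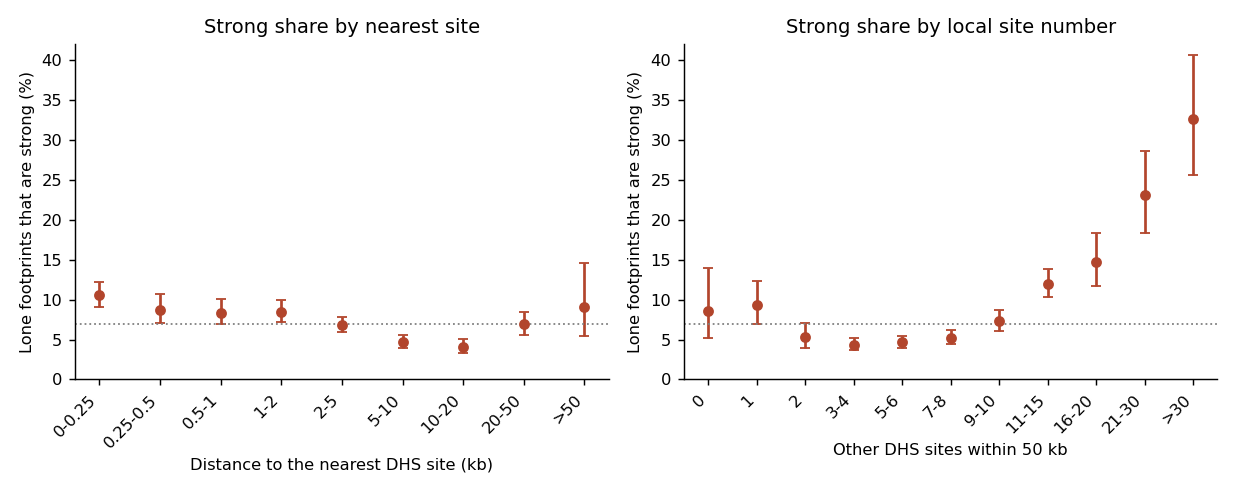
Percentage of lone footprints that were strong (y axes, same scale) by distance to the nearest DHS site in kb (left) and by the number of other DHS sites within 50 kb (right), with 95% Wilson intervals and the overall 6.95% as a dotted line. The share is 32.7% with more than 30 other sites and 4.33% with 3 to 4.

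The nearest neighbour and the wider surroundings were also set side by side. Where a lone site had fewer than 10 others within 50 kb, the strong share was 5.79% with a neighbour at 250 bp or less (52 of 898), 5.48% at 251 to 5000 bp and 4.85% beyond (255 of 5261), with overlapping Wilson intervals. Where it had 10 or more, the strong share was 17.5%, 13.7% and 7.80% in the same order. The difference in median distance to the nearest site depended on how the local number was held alike. Averaged over 10 classes of the number of sites within 50 kb, the median was 264 bp longer in strong lone sites. Among lone sites with fewer than 10 others it was shorter in strong ones, by a difference of -484 bp. By width, with fewer than 10 others, the strong share was 7.83% in sites under 350 bp (88 of 1124, 6.40 to 9.55%), 4.80% at 350 to 800 bp (419 of 8725, 4.37 to 5.27%) and 5.69% above 800 bp (56 of 985, 4.40 to 7.31%). With 10 or more, it was 15.9% (12.6 to 19.9%) in the narrow, 11.97% (10.6 to 13.4%) in the middle and 20.4% (16.7 to 24.6%) in the wide sites. The interval of the narrow sites stood clear of that of the middle class in sparse surroundings, and the interval of the wide sites did so in dense ones.

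The sites around strong lone sites carried a footprint less often than those around weak ones. The nearest site held at least 1 footprint for 50.4% of strong lone sites (Wilson interval 47.2 to 53.6%) and for 58.9% of weak ones (58.1 to 59.8%). The share was lower for strong sites on 16 of 20 chromosomes (mean difference -9.40 ± 8.60 percentage points, SD, n = 20). Neighbours with many footprints were the ones found less often. A nearest site with 5 or more was found for 12.2% of strong (10.3 to 14.4%) and 24.2% of weak lone sites (23.5 to 24.95%), whereas a nearest site with exactly 1 was found for 21.5% of strong (19.0 to 24.2%) and 14.95% of weak ones (14.3 to 15.6%). Over all sites within 50 kb, the median share with a footprint was 50% around strong and 62.5% around weak lone sites. Strong lone sites thus had more open sites nearby, of which a smaller share were footprinted. The nearest footprinted site was still closer to them at the median, 5150.5 bp against 7487 bp for weak lone sites. This did not hold over the whole range. The upper quartile was 22547 bp for strong and 22117.5 bp for weak lone sites, and the mean was longer for strong ones, 35796 against 27388 bp.

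Strong lone sites also lay beside each other. There were 33 pairs of strong lone sites with no other site between them, with a median gap of 1853 bp. The closest pair, 27 bp apart on chromosome 7, ran from 82288892 to 82289186 and from 82289214 to 82289808, with scores of -6.47 and -6.69. The second, 40 bp apart on chromosome 13 (65881843 to 65882472 and 65882513 to 65883108), had -5.68 and -5.57. The third, 67 bp apart on chromosome 12 (21551248 to 21551844 and 21551912 to 21552764), had -5.53 and -5.50. Of the 369 lone flanks of strong lone sites, 66 were strong (17.9%, Wilson interval 14.3 to 22.1%), against 303 of 3769 lone flanks of weak ones (8.04%, 7.21 to 8.95%). Where both sites of a pair had fewer than 10 others within 50 kb, these shares were 17.3% (34 of 196, 12.7 to 23.3%) and 6.04% (162 of 2680, 5.20 to 7.01%). Both sites of a pair were counted, and a site that belonged to several pairs entered once for each, so the intervals treat as independent what is shared.

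Some values in the list occur more than once. A score, given to 6 decimals, together with a footprint width was shared with at least 1 other footprint by 57 strong lone footprints (6%, Wilson interval 4.66 to 7.69%) and by 508 weak ones (3.99%, 3.67 to 4.35%). With 10 or more other sites within 50 kb these shares were 6.98% (27 of 387) for strong and 9.19% (225 of 2449) for weak, and with fewer they were 5.33% (30 of 563) for strong and 2.76% (283 of 10271) for weak. Score, footprint width, site width and distance to the nearer site edge were all equal in 5 pairs of strong lone sites, each on 1 chromosome, and in 41 sets of weak ones. The strong pair with the lowest score, -13.4, comprised 2 sites of chromosome 4, at 121870717 to 121871094 and at 122132350 to 122132727. How reads from duplicated sequence were placed is not known here, and the part of duplicated sequence in these results was not tested.

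The surroundings were described again without every lone footprint whose score and width were shared. At least 10 other sites within 50 kb were then found around 40.3% of strong (360 of 893, Wilson interval 37.1 to 43.6%) and 18.2% of weak lone sites (2224 of 12212, 17.5 to 18.9%). Of the 33 pairs of strong neighbours, 27 had no such footprint, and in 3 both sites had the same score. Among lone flanks, 16.9% were then strong beside a strong lone site (54 of 320, 13.2 to 21.4%) and 7.76% beside a weak one (266 of 3430, 6.91 to 8.70%). These values lay within the intervals given above for all lone sites, except the 18.2% of weak ones with 10 or more others.

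Other members stood alone. No other site lay within 50 kb of 14 strong lone sites (1.47%), against 149 weak ones (1.17%, Wilson interval 0.999 to 1.37%, inside the 0.880 to 2.46% of the strong group). The most isolated was on chromosome X, 409 bp wide, from 31247632 to 31248040, 387486 bp from the next, with a score of -6.99. That next site, from 31635527 to 31635935, was also a strong lone site and had the same score, widths and distance to the edge. One of 402 bp on chromosome 14 from 4140144 to 4140545 followed at 256231 bp, with a score of -11.7. The third, on chromosome X from 84483526 to 84483929, was 124933 bp from the next and had a footprint of 19 bp with a score of -19.5, nearly exactly in its middle. The remaining 2 lay on chromosome 12 from 23254832 to 23255393 (121868 bp, score -5.11) and from 23084479 to 23085001 (105548 bp, score -5.70).

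Within the strong group the surroundings were also read by score. The median number of sites within 50 kb was 8 for scores between -6 and -5, 9 between -8 and -6, 7 between -12 and -8 and 5 for the 35 members at -12 or lower. Weak lone sites had a median of 6, so the larger number was not seen in those 35 members. The share with 10 or more others within 50 kb was 39.1%, 47.4%, 36.0% and 25.7% (9 of 35) in the same order, with Wilson intervals that overlapped between all 4 classes, against 17.3% for lone footprints above -4. The interval at -12 or lower, 14.2 to 42.1%, included that 17.3%. Just outside the limit, between -5 and -4.5, the share was 31.4% (28.3 to 34.6%) and the median number of sites 7. Between -4.5 and -4 the share was 22.3%. A larger share than above -4 was thus not particular to the strong group. The median footprint width stayed at 29 or 30 bp in all 4 classes, and was also 29 bp between -5 and -4.5. A nearest site without a footprint was found for 48.5%, 50.4%, 52.3% and 54.3%, against 42.7% between -5 and -4.5 and 41.0% above -4.

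The 950 members fell in 581 bins of 1 Mb, out of 2330 bins with a lone site, and 401 of the 581 held just 1. In 28 bins there were 5 or more, 176 members in all among 625 lone sites. These bins held 18.5% of the members, 625 of the 13670 lone sites with a finite score and 2.20% of all sites. The 28 bins and those below were picked for their number of members, so their counts and shares describe that choice.

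The bin with the most members was that of chromosome 17 from 13 to 14 Mb, with 18 strong among 41 lone footprints (43.9%) and a median strong score of -6.52. It held 205 sites, the most of any bin, of which 79 had no footprint. The second was chromosome 6 from 85 to 86 Mb, with 11 strong among 29 lone footprints (37.9%) and 138 sites, 17 of them without a footprint. Next came 2 bins with 8 members each. On chromosome 7 from 27 to 28 Mb these were 8 of 17 lone footprints (47.1%), in 78 sites, and on chromosome 12 from 116 to 117 Mb 8 of 36 (22.2%), in 128 sites, 64 of them without a footprint. No gene was assigned to these stretches.

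Chromosomes differed in how often a lone footprint was strong. The share averaged 6.90 ± 2.08% (SD, n = 20 chromosomes) and ran from 4.30% on chromosome 19 (17 of 395, Wilson interval 2.70 to 6.78%) to 11.9% on chromosome 17 (78 of 658, 9.60 to 14.5%). It was 10.4% on chromosome 7 (84 of 806, 8.50 to 12.7%), 9.81% on chromosome X (47 of 479, 7.46 to 12.8%), 9.16% on chromosome 12 and 8.76% on chromosome 5. Chromosome 6 had the most members, 88 of 1140 lone footprints (7.72%). Next to chromosome 19, chromosome 10 (30 of 691, 4.34%) and chromosome 9 (29 of 625, 4.64%) had the lowest shares. The other 11 chromosomes lay between 5.35% and 6.83%, with overlapping intervals. Chromosome Y had 1 lone footprint, a weak one.

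Chromosomes also differed in the local number of sites. At least 10 others within 50 kb were found around 29.6% of the lone sites on chromosome 17, 26.9% on chromosome 7, 29.3% on chromosome 12, and 32.3% on chromosome 6, against 19.0% on X. Among lone sites with fewer than 10 others, the strong share was 7.13% on chromosome 17, 7.47% on chromosome 7, 5.45% on chromosome 12 and 4.53% on chromosome 6. Chromosome X then had the highest share, 9.02%, where the 20 chromosomes averaged 5.31 ± 1.45% (SD). Without chromosome 17 the share over all lone footprints was 6.70%.

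**Figure D5:**
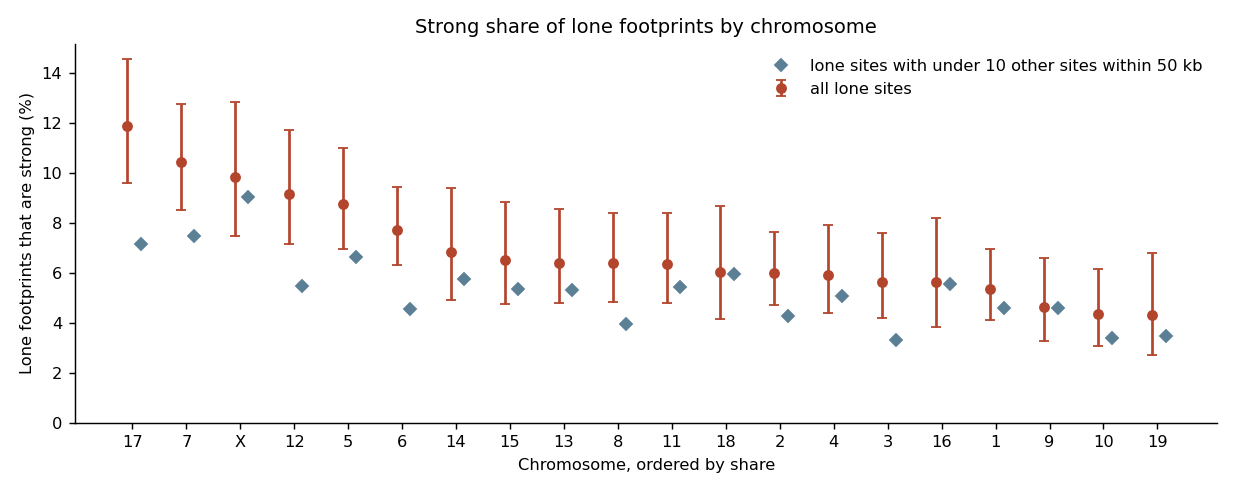
Percentage of lone footprints that were strong on each chromosome, ordered by share, with 95% Wilson intervals (red circles), and the same among lone sites with fewer than 10 other sites within 50 kb (blue diamonds). Chromosome 17 has 11.9% over all lone sites and 7.13% in sparse surroundings, while chromosome X has 9.81% and 9.02%.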

How the data were processed

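Nuclei were treated with DNase I and short fragments were sequenced in the 2 DNase samples, which are runs of 1 library that the authors pooled with earlier reads, per the labels' protocols. HOMER and the mm9 build are named in the submitters' processing notes. The footprint caller and tool versions were not stated in the sources at hand. As named by the authors, the footprint list has a largest width of 30 bp and an FDR of 0.01. The deposited score is headed as a p-value per the file headers and was used only to choose and rank footprints. No read depth accompanies the lists.

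A footprint was counted in each site with which it shared at least 1 bp. Counts per site equalled those of bedtools 2.31.1 for all 129028 sites, and no footprint touched 2 sites. Distances run from edge to edge, with 0 for the 65 neighbouring pairs that touched or overlapped by 1 bp. Sites within 50 kb were counted between centres. Differences are strong minus weak, of medians, or of means for relative position and the share with a footprinted neighbour. Shares have 95% Wilson intervals. The steps were tested on simulated data. Python 3.11.15, numpy 2.4.6, pandas 2.3.3, scipy 1.17.1 and matplotlib 3.10.9 were used.

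The members, measures and regions were chosen with earlier results of these data known. The regions named are the 10 lowest scores, the 5 nearest the limit on both sides, the 5 widest, narrowest and most isolated members, the 3 bins with the most members and the 3 closest pairs. Ties were ordered by chromosome name as text, and both bins tied at the last place are given. The planned motif shares were not run, because a sequence of mm9 was not used here. The count within 50 kb, the split at 10 such sites, the shares by class, the repeated values and the removal of rich bins, of chromosome 17 or of repeated values were chosen after seeing the data. Alternatives were score limits of -4.5 and -6, -Inf counted as strong, full overlap, autosomes alone, no footprints of 30 bp, the wider 50% of lone sites, comparison within 10 classes of site width or of local site number, other neighbours, and windows of 25 and 100 kb.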

Additional observations from a re-analysis of the deposited data

Results flagged for a closer look

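Lone footprints with a score of -Inf stood outside the comparisons of the report, since both groups were limited to finite scores. There were 171, 1.24% of the 13841 lone footprints. Their median width was 27 bp, and 25.1% were under 20 bp (Wilson interval 19.2 to 32.1%), against 6.74% of strong and 18.2% of weak lone footprints. They lay farther from the middle of their sites, with a mean relative distance of 0.360 ± 0.254 (SD), and 32.2% were nearer to the edge than to the centre (25.6 to 39.5%), against 18.5% of strong and 16.4% of weak ones. The nearest site held a footprint for 37.4% (30.5 to 44.9%), against 50.4% of strong and 58.9% of weak lone sites. At least 10 other sites within 50 kb were found around 35.1%, against 40.7% of strong and 19.3% of weak lone sites. No cause of these scores was tested.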

How the results depend on the processing

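No paired analysis was possible because sites and footprints were called once, on the pooled reads of 1 library. Values are strong minus weak lone sites. Changes count as such when they exceed 1 SD over chromosomes, the Wilson interval of a share, or 1.5 times for a number of sites. Of 107 values under alternatives, 81 kept direction and range, 21 moved and 5 reversed. Full overlap changed no value, since every footprint lay fully inside its site. The number of strong lone sites and their share of lone footprints were 1760 and 12.9% at a limit of -4.5, 395 and 2.89% at -6, 483 and 5.30% without footprints of 30 bp, 438 and 6.42% in the wider 50% of lone sites, and 563 and 5.20% without sites that had 10 or more others within 50 kb. The share was 8.10% with -Inf counted as strong and 5.93% without bins of 5 or more strong lone sites, which is lower by that choice of bins. The site width difference reversed to 36.5 bp in the wider 50% of sites, a setting that removes the narrow sites. The difference in relative distance reversed to -0.0020 at -6, -0.00295 within classes of site width and -6.83e-05 within classes of local site number. The footprint width difference was 3 bp at -6, without footprints of 30 bp and without chromosome 17. The difference in distance to the nearest site was -484 bp without sites that had 10 or more others within 50 kb, 264.2 bp, reversed, within classes of local site number, and -6973 bp for the farther flanking site. The difference in number of sites within 50 kb was 0 without sites that had 10 or more, a setting that caps this number. The range of strong shares over chromosomes was 10.7 points at -4.5, 4.46 at -6 and 0.972 as a share of all sites. Other causes were not tested. Missing read depth limits every comparison.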
